A study of Caenorhabditis elegans with 7 samples.

Results

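The kinetochore and spindle checkpoint genes described here are hcp-3, hcp-4, knl-1, knl-2, knl-3, ndc-80, him-10, bub-1, mdf-1 and mdf-2. They were chosen by name for the roles of their proteins, and all 10 of these 10 were found among the 46748 genes of the count table. All 10 also passed the filter on low counts, which left 13035 genes for testing. The study sequenced RNA of early Caenorhabditis elegans embryos, collected before gastrulation, in 7 libraries, of which 4 are of genotype flp-21(ok889) and 3 are wildtype, with the strain name N2 in their titles. flp-21 encodes an FMRFamide-like neuropeptide, and ok889 is a deletion allele. The mutant libraries carry the numbers 11, 22, 29 and 30 in their labels and the wildtype libraries 11, 22 and 30. The series title names the nervous control of what mothers provide to their eggs in response to social cues as the question.

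Kinetochores are the protein assemblies that attach chromosomes to spindle microtubules. In C. elegans, whose chromosomes are holocentric, they form along the whole length of each chromosome, and the first embryonic divisions run on RNA and protein laid down by the mother. The centromeric histone HCP-3 (CENP-A) and its partners HCP-4 (CENP-C) and KNL-2 lay the chromatin foundation. KNL-1, the Mis12 complex with KNL-3 and the Ndc80 complex with NDC-80 and HIM-10 (Nuf2) build the microtubule-binding layer on it. BUB-1, MDF-1 (Mad1) and MDF-2 (Mad2) work in the spindle checkpoint, which delays anaphase while chromosomes are unattached.

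Total counts were 34164612 to 53620276 per library, and levels are given as TMM-scaled CPM, the count per library scaled to a common total. Values per library are listed in the order of the library numbers, 11, 22, 29 and 30 for the mutant and 11, 22 and 30 for wildtype. Neither separate cultures nor the number of mothers pooled are given for these libraries. The p-values therefore reflect only how far these samples spread, and that spread may be technical. flp-21 itself had 1 to 9 counts in the mutant libraries and 2 to 24 in the wildtype libraries, too few to check the genotype labels. The tissue label was checked with marker genes. All 13 maternal embryo markers had counts in every library, and their summed level was 10484 to 13495 CPM in the mutant and 4885 to 9627 CPM in wildtype. The 11 early zygotic markers summed to 144 to 264 CPM in the mutant and 4.58 to 193 CPM in wildtype, the lowest value being that of wildtype library 22, where med-1, med-2 and hlh-27 had 0 counts. Transcripts of other tissues also differed with genotype. The 36 sperm genes summed to 42 to 121 CPM in the mutant and 7953 to 14980.3 CPM in wildtype, the 6 yolk genes to 0.438 to 921 and 2626 to 48599 CPM, and the 156 collagen genes to 31.0 to 1297 and 7077 to 45889 CPM. Ribosomal protein genes, 78 in number, summed to 9242 to 29510.5 CPM in the mutant and 97567 to 125533 CPM in wildtype, and 22 ribosomal RNA genes to 19996 to 35723 and 40103 to 182340.0 CPM. The part of these transcripts in the differences below was not tested except where a value without them is given. In whole embryos, fewer cells of a type and less RNA per cell cannot be told apart. The libraries numbered 30 were the highest or lowest of their genotype, in both genotypes, for every one of these 10 genes except bub-1. Results are therefore given with and without them.

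Of the 10 genes, bub-1 was higher in the mutant and none was lower by the edgeR quasi-likelihood test with Benjamini-Hochberg adjustment over all 13035 tested genes. Across all tested genes, 9.01% were higher and 29.4% lower in the mutant by this test, so 1 of 10 higher is close to the background. At an unadjusted p under 0.05, 2 were higher and 0 lower, against 1762 and 4302 of all 13035 tested genes. DESeq2 called 1 higher and 0 lower, against 1809 and 4682 of 21630 genes. The median log2 fold change was 0.60 for the 10 genes and -0.21 for all tested genes. Of the 10 estimates 7 were above 0, against 5845 of the 13035. Summed over the 10 genes, levels were 1793 to 2230.3 CPM in the mutant libraries and 1118 to 1574 CPM in the wildtype libraries.

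**Figure D1:**
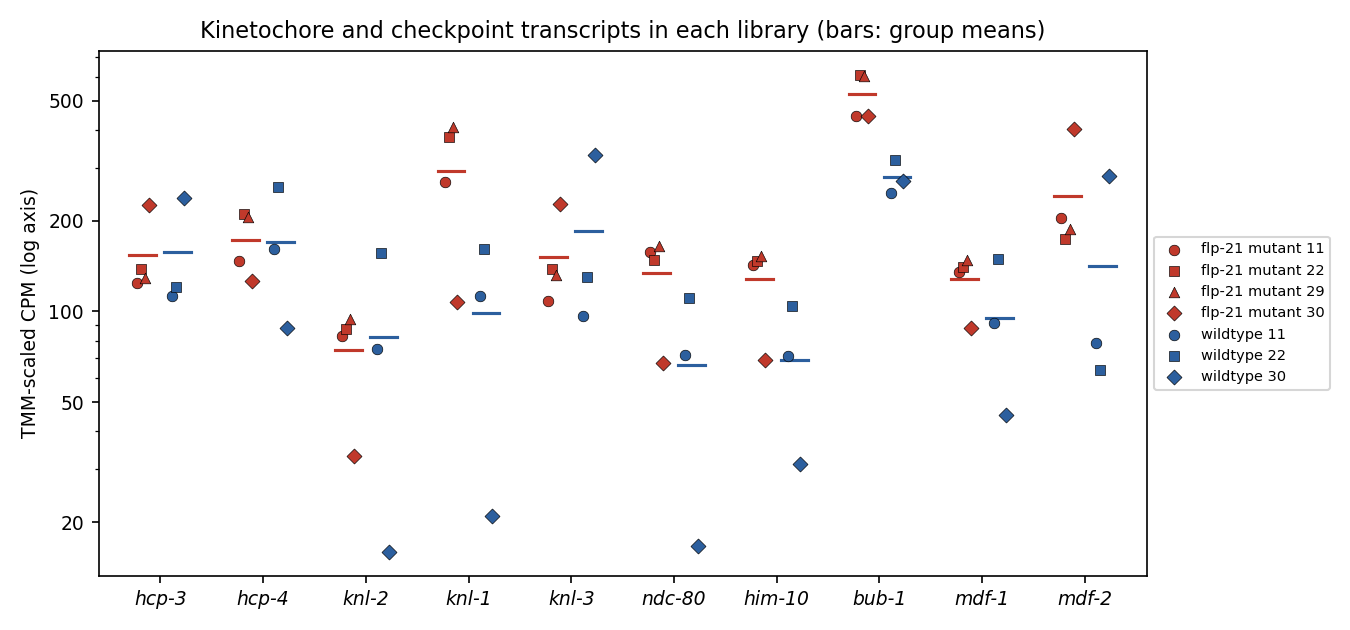
TMM-scaled CPM (log axis) of the 10 genes in each of the 7 libraries, with mutant libraries in red, wildtype libraries in blue, marker shapes for the library numbers and short bars for the group means. bub-1 is the only one of the 10 whose groups do not overlap, and the diamonds of library 30 lie at one end of their group for every gene except bub-1.

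The centromere genes did not pass the test. hcp-3 (chromosome III, 9615307 to 9616470, minus strand, WBcel235) encodes the histone H3 variant that marks centromeric chromatin. Its level was 124, 139, 129 and 225 CPM in the mutant and 113, 121 and 238 CPM in wildtype. In both genotypes library 30 was the highest, and the groups overlapped. The mean was 157 ± 70.0 CPM in wildtype (SD, n = 3) and 154 ± 47.5 CPM in the mutant (SD, n = 4), with a log2 fold change of -0.03 (SE 0.38, edgeR adjusted p = 0.962). Reads of hcp-3 could be shared with its close relative cpar-1, and 21 of its exon bases overlap the small RNA gene 21ur-9360 on the other strand.

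hcp-4 (chromosome I, 3862775 to 3865938, minus strand) encodes the CENP-C protein, which links centromeric chromatin to the outer kinetochore. It had 147, 210.3, 206 and 126 CPM in the mutant and 161, 259 and 88.3 CPM in wildtype. Both ends of the range were wildtype libraries. The log2 fold change was 0.02 (SE 0.41, edgeR adjusted p = 0.970). knl-2 (chromosome I, 6460433 to 6464263, plus strand) encodes a protein needed to load HCP-3 onto chromatin. Its levels were 83.0, 87.6, 94.6 and 33.0 CPM in the mutant and 75.2, 156 and 16.0 CPM in wildtype, in the same order of libraries. The highest and the lowest were again wildtype, and library 30 was the lowest in each genotype. The log2 fold change was -0.15 (SE 0.65, edgeR adjusted p = 0.882).

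In the microtubule-binding layer, knl-1, ndc-80 and him-10 had higher mutant means and knl-3 a lower one, and none passed with all 7 libraries and genotype as the only term. knl-1 (chromosome III, 8250636 to 8254286, plus strand) encodes the scaffold that brings the Ndc80 and Mis12 complexes and BUB-1 together. It had 269, 379, 410.0 and 107 CPM in the mutant and 113, 162 and 21 CPM in wildtype. Mutant library 30 alone lay within the wildtype range, and wildtype library 30 was below all other libraries. The mean was 98.5 ± 71.4 CPM in wildtype (SD, n = 3) against 291 ± 137 CPM in the mutant (SD, n = 4), and the log2 fold change of 1.56 (SE 0.67) had an unadjusted p of 0.0431 and an edgeR adjusted p of 0.0957. Without mutant library 30 it passed, at 1.84 (edgeR adjusted p = 0.0485). Without wildtype library 30 it did not, at 1.20 (edgeR adjusted p = 0.0834). With any other single library left out it did not pass either (edgeR adjusted p from 0.0754 to 0.185).

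ndc-80 (chromosome IV, 10086137 to 10088434, plus strand) and him-10 (chromosome III, 5803260 to 5805250, plus strand) encode partners in the Ndc80 complex, the main microtubule-binding part of the kinetochore. ndc-80 had 158, 148, 165 and 67.4 CPM in the mutant and 71.9, 111 and 16.7 CPM in wildtype. him-10 had 142, 147, 153 and 69.0 CPM in the mutant and 71.4, 104 and 31.1 CPM in wildtype. For both genes the 3 mutant libraries other than library 30 were above every wildtype library, and mutant library 30 lay among the wildtype values. The log2 fold changes were 1.02 for ndc-80 (SE 0.58, edgeR adjusted p = 0.204) and 0.89 for him-10 (SE 0.46, edgeR adjusted p = 0.158).

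knl-3 (chromosome V, 1868900 to 1870550, plus strand) encodes a subunit of the Mis12 complex. It had 108, 139, 132 and 228 CPM in the mutant and 96.3, 130.5 and 330.1 CPM in wildtype. Library 30 was the highest of each genotype, and the wildtype range enclosed all mutant libraries. The log2 fold change was -0.29 (SE 0.47, edgeR adjusted p = 0.666).

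Among the checkpoint genes bub-1 passed. bub-1 (chromosome I, 7251941 to 7255225, plus strand) encodes a kinase that binds KNL-1 and acts both in the checkpoint and in chromosome alignment. It had 444, 611, 604 and 446 CPM in the mutant and 247, 317 and 272 CPM in wildtype. Every mutant library was above every wildtype library. The means were 526 ± 93.7 CPM (SD, n = 4) and 279 ± 35.7 CPM (SD, n = 3), a difference of 1.89-fold (log2 0.92, SE 0.31, edgeR adjusted p = 0.0412). bub-1 was 1 of 10 genes without overlap and higher in the mutant, against 14.1% of all tested genes. The call was near the threshold. It was lost in 8 of 18 alternatives, among them those without mutant library 11 (edgeR adjusted p = 0.0814), 22 (0.129), 29 (0.135) or both 22 and 29 (0.325), without wildtype library 11 (0.0633), with upper quartile scaling (0.0858) and with a filter at a mean of 5 CPM (0.0717). It was kept in the other 10, and the adjusted p-values ran from 0.00273 to 0.325 over all 18. With the ribosomal RNA, sperm, yolk, collagen and ribosomal protein genes taken out of the table, the log2 fold change was 1.08 (edgeR adjusted p = 0.0127).

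mdf-1 (chromosome V, 9541782 to 9544226, minus strand) encodes the Mad1 protein, which brings Mad2 to unattached kinetochores. It had 135, 141, 148 and 88.4 CPM in the mutant and 91.2, 149 and 45.2 CPM in wildtype. All mutant libraries lay within the wildtype range, and the log2 fold change was 0.43 (SE 0.42, edgeR adjusted p = 0.464). mdf-2 (chromosome IV, 2636231 to 2641117, minus strand) encodes the Mad2 protein, the inhibitor of the anaphase-promoting machinery. It had 204, 174, 188 and 403 CPM in the mutant and 78.7, 64.0 and 281 CPM in wildtype. Wildtype library 30 was above 3 of the 4 mutant libraries, whereas the other wildtype libraries were below all of them. The log2 fold change was 0.78 (SE 0.56, edgeR adjusted p = 0.308). Without wildtype library 30 it was 1.89 (edgeR adjusted p = 0.00702), a setting that kept mutant library 30, the highest of all. Without mutant library 30 it was 0.41 and did not pass (edgeR adjusted p = 0.596). With any other single library left out mdf-2 did not pass either.

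Levels of different genes were compared per length, as mean CPM per kilobase of exon. In the mutant, mdf-2 stood highest at 227 ± 102 (SD, n = 4), followed by bub-1 at 172 ± 30.6 and hcp-3 at 152 ± 46.9, values that overlap within their spread. In wildtype, hcp-3 stood highest at 155 ± 69.1 (SD, n = 3), followed by knl-3 at 149 ± 101, mdf-2 at 133 ± 114 and bub-1 at 90.9 ± 11.7, which also overlap. The places of mdf-2, and of knl-3 in wildtype, rested on library 30. In the other mutant libraries mdf-2 had 191, 163 and 177 CPM per kilobase and bub-1 145, 199 and 197. In the other wildtype libraries mdf-2 had 73.9 and 60.1, knl-3 77.3 and 105, and bub-1 80.6 and 104. With all libraries, knl-2 was the lowest in both, at 24.9 ± 9.38 in the mutant and 27.5 ± 23.5 in wildtype.

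The libraries numbered 30 differed from the others of their genotype in a way that went with exon length. The shortest genes, hcp-3, mdf-2 and knl-3, with 1013 to 1245 bases of exon, were higher in library 30 in both genotypes. The other 7 genes, with 1734 to 3376 bases, were lower in library 30 in both. mdf-2 differed most upwards, by a log2 difference of 1.10 in mutant library 30 and 1.98 in wildtype library 30 from the mean of the other libraries. knl-2 and knl-1 differed most downwards, by -1.40 and -1.69 in the mutant and -2.73 and -2.66 in wildtype. bub-1, although 3064 bases long, was close to the other libraries, at -0.29 in the mutant and -0.04 in wildtype.

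**Figure D2:**
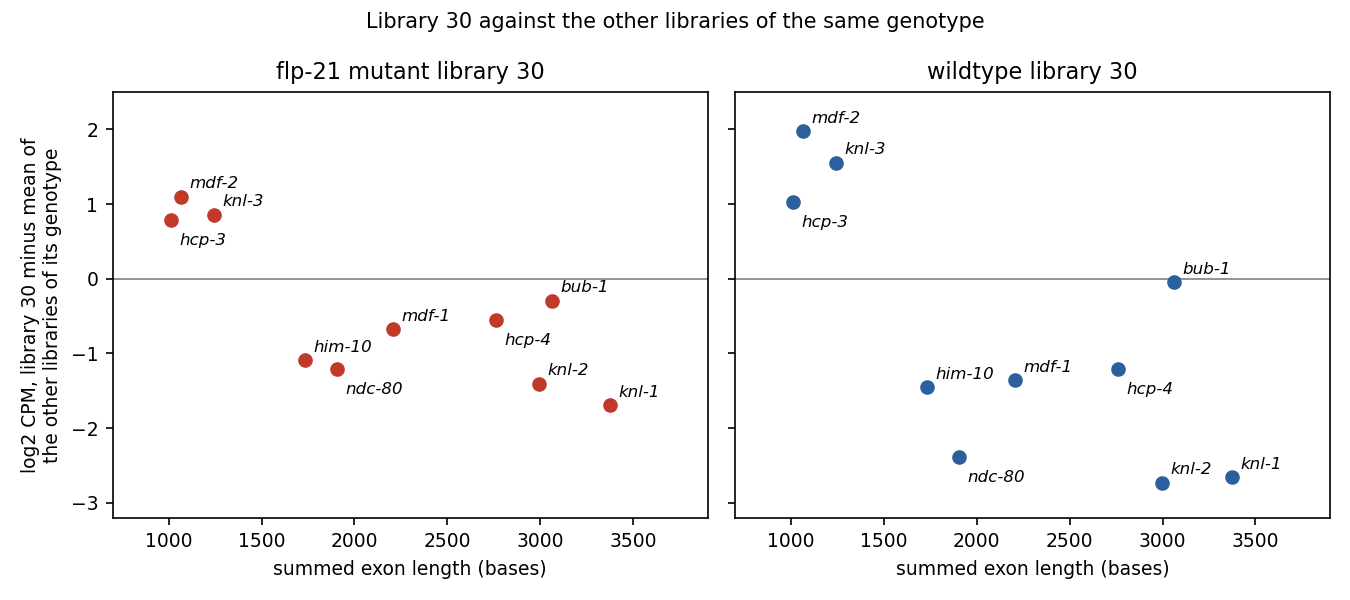
Difference in log2 CPM between library 30 and the mean of the other libraries of its genotype, against the summed exon length of each gene in bases, for the mutant (left) and wildtype (right). The 3 genes of 1013 to 1245 bases lie above 0 and the 7 longer genes below 0 in both panels.

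The same direction was present at the ends of the length range in the rest of the table. Among the 6622 tested genes with a mean of at least 10 CPM, the 1760 genes under 1000 bases had a median log2 difference of 1.08 in mutant library 30 and 0.66 in wildtype library 30. The 1419 genes of 2500 bases or more had medians of -0.81 and -0.56. Spearman's rho between exon length and the difference was -0.67 and -0.65 over the 10 genes and -0.73 and -0.33 over the 6622 genes, for mutant and wildtype in turn. These are descriptions over genes that share the same libraries. Between the libraries numbered 30 themselves, 8 of 10 genes were higher in the mutant, from 5.12-fold for knl-1 and 4.04-fold for ndc-80 down to 1.42-fold for hcp-4. hcp-3 stood at 0.945 and knl-3 at 0.691 of the wildtype level. With 1 library a genotype, these ratios have no replicate check. The share of all tested genes higher in mutant library 30 was not calculated, so 8 of 10 has no background to be set against. Ribosomal RNA genes summed to 27179 CPM in mutant library 30 and 182340 CPM in wildtype library 30, and their part here was not tested.

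With both libraries numbered 30 left out, an alternative chosen after seeing the data that leaves 3 mutant and 2 wildtype libraries, 5 of the 10 genes were higher in the mutant and 0 lower, by the same edgeR test. Over all 13790 genes then tested, 21.9% were higher and 35.4% lower. The 5 were bub-1 with a log2 fold change of 1.09 (edgeR adjusted p = 0.00273), knl-1 with 1.48 (0.00185), mdf-2 with 1.55 (0.00112), him-10 with 0.88 (0.0135) and ndc-80 with 0.91 (0.0162). They include bub-1, the gene called with all libraries. The other 5 did not pass, with log2 fold changes of 0.29 for hcp-3, -0.05 for hcp-4, -0.27 for knl-2, 0.28 for knl-3 and 0.36 for mdf-1.

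**Figure D3:**
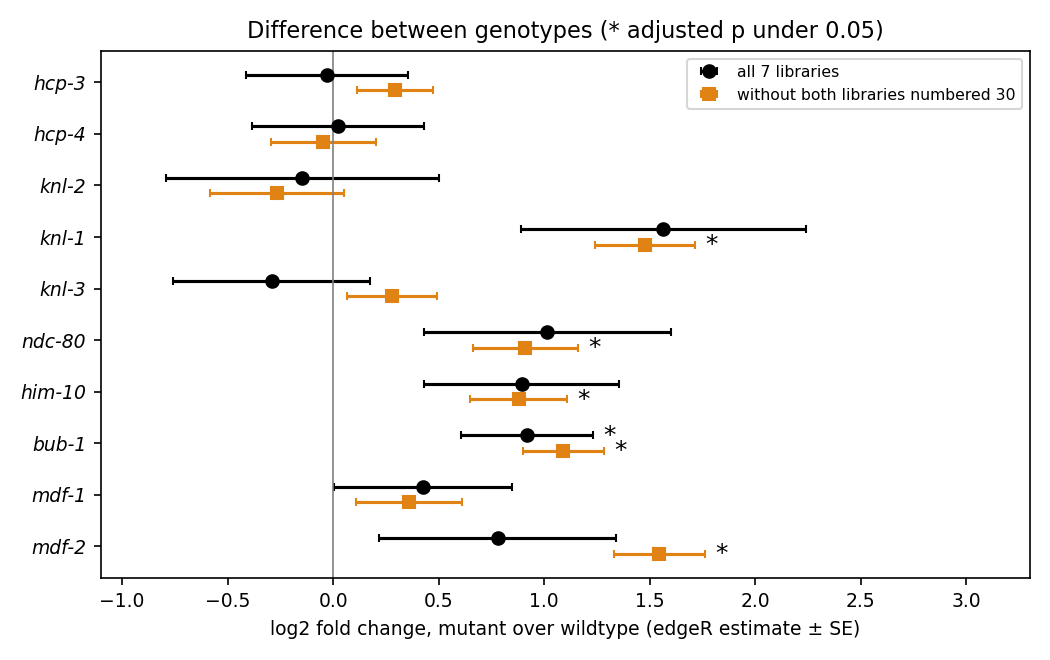
log2 fold change of mutant over wildtype with its standard error for each of the 10 genes, from all 7 libraries (black) and without both libraries numbered 30 (orange), with asterisks at an edgeR adjusted p under 0.05. bub-1 passes in both and knl-1, mdf-2, him-10 and ndc-80 pass in the second only; the estimates of hcp-3, hcp-4, knl-2 and knl-3 lie near 0 in both.

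Ratios between proteins' transcripts that work together do not depend on the scaling of a library, and 6 such ratios were compared as log2 ratios of counts. None of the 6 passed the test, with unadjusted p-values of 0.200 or more and adjusted ones of 0.686 or more (2-sided exact permutation test over 35 arrangements, Benjamini-Hochberg over the 6). The smallest possible p is 0.0286, so a single differing ratio cannot have an adjusted p under 0.171, and the adjusted values do not show that the ratios were alike. ndc-80 to him-10, partners in one complex, was the steadiest ratio. It was 0.15, 0.00, 0.11 and -0.03 in the mutant and 0.01, 0.09 and -0.90 in wildtype, and wildtype library 30 alone departed from near-equal counts. Its mean was -0.26 ± 0.55 in wildtype (SD, n = 3) against 0.06 ± 0.09 in the mutant (SD, n = 4) (exact permutation p = 0.229).

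The other ratios moved with library 30. knl-1 to knl-3 was 1.31, 1.45, 1.63 and -1.09 in the mutant and 0.23, 0.31 and -3.98 in wildtype. The 3 mutant libraries other than library 30 were thus above the wildtype libraries, while both libraries numbered 30 had fewer knl-1 than knl-3 counts. The difference in means was 1.97 (exact permutation p = 0.200). bub-1 to knl-1 was 0.72, 0.69, 0.56 and 2.06 in the mutant and 1.13, 0.97 and 3.69 in wildtype, a difference of -0.93 (exact permutation p = 0.371). mdf-1 to mdf-2 was -0.59, -0.30, -0.35 and -2.19 in the mutant and 0.21, 1.22 and -2.63 in wildtype, a difference of -0.46 (exact permutation p = 0.686). Differences for hcp-3 to knl-2 and hcp-3 to hcp-4 were -0.26 and -0.11.

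The size of these differences, and for some the sign, rested on library 30. Without wildtype library 30, hcp-3 to knl-2 differed by 1.01, hcp-3 to hcp-4 by 0.64 and knl-1 to knl-3 by 0.56. In the same setting bub-1 to knl-1 differed by -0.04, mdf-1 to mdf-2 by -1.58 and ndc-80 to him-10 by 0.0058. Without both libraries numbered 30, the differences were 0.46 for hcp-3 to knl-2, 0.30 for hcp-3 to hcp-4, 1.20 for knl-1 to knl-3, 0.036 for ndc-80 to him-10, -0.39 for bub-1 to knl-1 and -1.13 for mdf-1 to mdf-2. Without mutant library 30 mdf-1 to mdf-2 differed by -0.014, and without wildtype library 22 by 0.35.

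**Figure D4:**
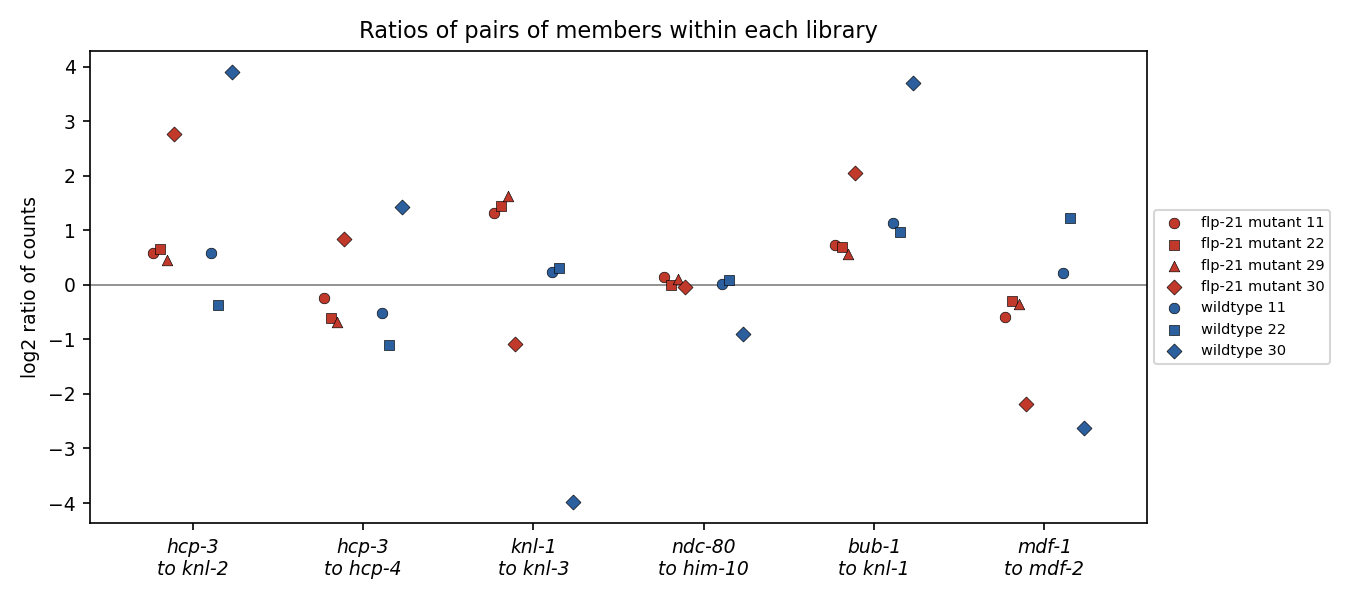
log2 ratio of counts for 6 pairs of genes in each library, with mutant libraries in red, wildtype libraries in blue and marker shapes for the library numbers. The diamonds of library 30 stand away from the other libraries in both genotypes for every pair except ndc-80 to him-10, where the wildtype one alone stands away.

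The 10 genes did not share one profile over the 7 libraries. The likeness of a pair was measured as the root mean square difference of their log2 CPM, each centred on its own mean. The closest pairs were hcp-3 and knl-3 at 0.21, him-10 and mdf-1 at 0.26 and hcp-4 and mdf-1 at 0.26. ndc-80 and him-10 followed at 0.34, and knl-1 and ndc-80 at 0.36. The most unlike pair was knl-1 and knl-3 at 1.84. The distances include both libraries numbered 30, where hcp-3 and knl-3 were higher than in the others of their genotype and knl-1 was lower. Distances without those libraries were not calculated. From the mean of the 10 profiles, mdf-1 was the nearest at 0.23 and mdf-2 the farthest at 1.02. Outside the 10 genes, 238 genes were closer to that mean than mdf-1 and 6629 were closer than mdf-2. The 5 other genes nearest to that mean were F33A8.4 at 0.067, F32E10.5 at 0.071, C34C12.2 at 0.072, edc-3 at 0.073 and prmt-5 at 0.073. edc-3 encodes an enhancer of mRNA decapping and prmt-5 an arginine methyltransferase.

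The other genes of the pathway were taken from a list of 30, of which 29 were matched and tested. In the mutant 10 were higher, 3 were lower and 16 did not pass by the same edgeR test. Over all tested genes 9.01% were higher and 29.4% lower. At an unadjusted p under 0.05, 13 were higher and 3 lower, against 1762 and 4302 of all 13035 tested genes. The median log2 fold change was 0.72. Without both libraries numbered 30, 24 were higher and 3 lower, against 21.9% and 35.4% of all genes then tested. Of the 13 genes called with all libraries, 13 were called there too. That fit uses a subset of the same libraries, chosen after seeing the data, so it is no independent check. The count of higher genes was 6 without mutant library 11 (4.63% of all tested genes), 5 without wildtype library 11 (6.15%) and 21 without wildtype library 30 (17.7%). With the ribosomal RNA, sperm, yolk, collagen and ribosomal protein genes taken out of the table, 13 were higher and 3 lower, among them all 13 called with the full table. Of all 12854 genes then tested, 1606 were higher and 3491 lower.

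The 2 other centromere genes differed in opposite directions. lin-53, which encodes a histone chaperone, rose from 375 ± 26.9 CPM in wildtype (SD, n = 3) to 793 ± 72.3 CPM in the mutant (SD, n = 4), a log2 fold change of 1.08 (edgeR adjusted p = 0.0169). cpar-1, which encodes a relative of the centromeric histone HCP-3, fell from 62.8 ± 11.7 to 13.7 ± 2.34 CPM (log2 -2.20, edgeR adjusted p = 0.00100), and the division of reads between it and hcp-3 is uncertain. All 3 further Mis12 complex genes rose. The log2 fold changes were 1.67 for mis-12 (edgeR adjusted p = 0.0217), 1.66 for kbp-1 (0.0355) and 2.02 for kbp-2 (0.0337). This count of 3 was 0 without wildtype library 11 and 1 without mutant library 11, mutant library 30 or wildtype library 22, and 1 with upper quartile scaling or the filter at a mean of 5 CPM. mis-12, kbp-1 and kbp-2 have 833, 580 and 619 bases of exon, a length at which library 30 was higher by median in both genotypes. For all 3, library 30 was the highest of each genotype, and every mutant library was above every wildtype library. kbp-1 had 90.8, 39.3, 44.6 and 152 CPM in the mutant and 24.0, 16.6 and 36.7 CPM in wildtype. kbp-2 had 171, 79.6, 96.2 and 329 CPM in the mutant and 40.6, 13.9 and 70.1 CPM in wildtype. lin-53 lost its call without mutant library 22 (edgeR adjusted p = 0.0624) or 29 (0.0683). Of the Ndc80 complex genes and kbp-5, a KNL-1-binding protein gene, 2 of 3 rose. kbp-3, kbp-4 and kbp-5 are also short, with 481, 386 and 561 bases of exon. kbp-3 went from 16.8 ± 3.89 to 75.5 ± 34.4 CPM (log2 2.17, edgeR adjusted p = 0.00450) and kbp-5 had a log2 fold change of 1.86 (edgeR adjusted p = 0.0146). kbp-4 had 314, 131, 143 and 715 CPM in the mutant and 59.8, 27.4 and 277 CPM in wildtype, and did not pass at 1.43 (edgeR adjusted p = 0.214). Without both libraries numbered 30 the log2 fold changes were 1.27 for lin-53, -2.17 for cpar-1, 2.08 for mis-12, 1.70 for kbp-1, 2.27 for kbp-2, 2.11 for kbp-3, 1.98 for kbp-5 and 2.36 for kbp-4, and all 8 passed.

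In the outermost layer, rod-1 and czw-1, which encode parts of the Rod-Zwilch-Zw10 complex, rose. rod-1 had 735, 799, 849 and 307 CPM in the mutant and 181, 138 and 64.2 CPM in wildtype. All mutant libraries were above all wildtype libraries, with a log2 fold change of 2.40 (edgeR adjusted p = 0.00452). czw-1 went from 171 ± 12.1 to 447 ± 68.4 CPM (log2 1.38, edgeR adjusted p = 0.00591). spdl-1, which encodes the dynein recruiter Spindly, fell from 47.4 ± 27.9 to 10.5 ± 3.57 CPM (log2 -2.17, edgeR adjusted p = 0.00884). Its levels were 8.26, 14.1, 13.1 and 6.77 CPM in the mutant and 52.6, 72.4 and 17.3 CPM in wildtype. Against wildtype library 30 alone its log2 fold change was -0.50. zwl-1, the remaining gene of this group, did not pass. Among corona and microtubule factors, ska-1 rose by a log2 fold change of 1.42 (edgeR adjusted p = 0.0165). klp-7, which encodes a microtubule-depolymerizing kinesin, had 36.1, 61.5, 54.7 and 29.8 CPM in the mutant and 153, 261 and 234 CPM in wildtype (log2 -2.25, edgeR adjusted p = 0.00143), and the other 4 of 6 did not pass. Of the 4 other checkpoint genes san-1, which encodes the worm Mad3 protein, rose by 1.41 (edgeR adjusted p = 0.0265). None of the 3 genes of anaphase onset and none of the 4 chromosomal passenger genes passed with all libraries by edgeR, with 1 and 1 higher at an unadjusted p under 0.05 and DESeq2 calling 1 in each group. All 3 and all 4 were higher without wildtype library 30, where 17.7% of all tested genes were, and also without both libraries numbered 30, where 21.9% were.

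Some calls among these outer genes were lost when 1 library was left out. spdl-1 lost its call without wildtype library 22 (edgeR adjusted p = 0.0512). ska-1 lost it without mutant library 11 (0.0644) or wildtype library 11 (0.0502), and san-1 without mutant library 11 (0.0851) or wildtype library 11 (0.0881). With the filter at a mean of 5 CPM, ska-1 (edgeR adjusted p = 0.0707) and san-1 also lost theirs. czw-1 lost its call without mutant libraries 22 and 29 (edgeR adjusted p = 0.0852). Without both libraries numbered 30 the log2 fold changes were 2.45 for rod-1, 1.56 for czw-1, -2.29 for spdl-1, 1.31 for ska-1, -1.92 for klp-7 and 1.24 for san-1, all past the threshold, and zwl-1 passed at 0.66. With the ribosomal RNA, sperm, yolk, collagen and ribosomal protein genes taken out of the table, the log2 fold change was 2.51 for rod-1 (edgeR adjusted p = 0.00516) and -2.08 for klp-7 (0.00220).

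**Figure D5:**
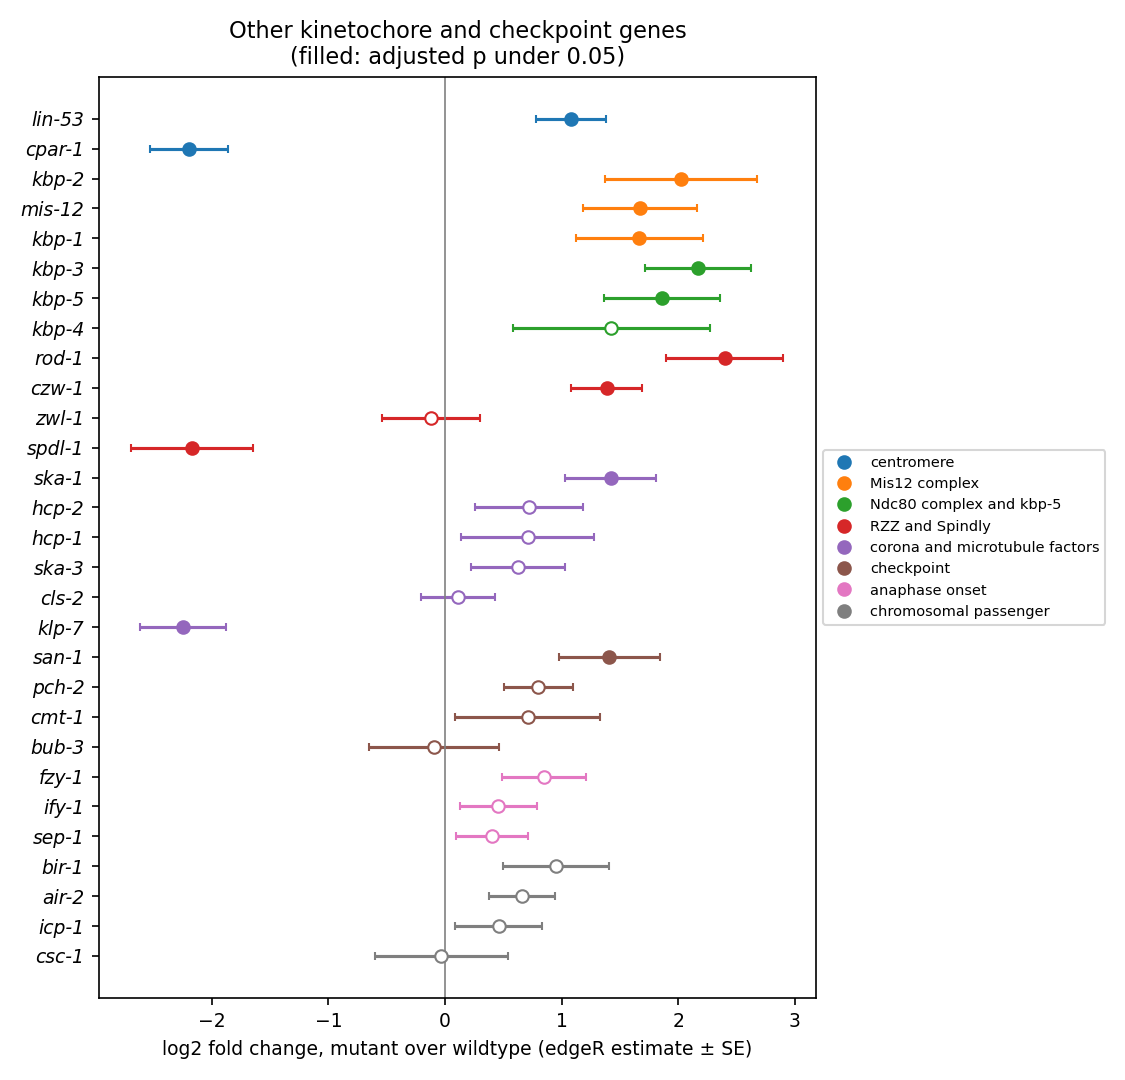
log2 fold change of mutant over wildtype with its standard error for the 29 other kinetochore and checkpoint genes, coloured by group and filled where the edgeR adjusted p is under 0.05. The 10 filled points right of 0 include rod-1, kbp-3 and lin-53, and the 3 left of 0 are cpar-1, klp-7 and spdl-1.

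The authors' deposited table of their own comparison lists 3791 genes, each with an absolute log2 fold change of at least 1.5. The largest DESeq2 adjusted p in it is 0.0497, so a gene could be absent on either ground. None of the 10 genes and 9 of the 29 others appear in the authors' deposited table. The authors' deposited table gives a log2 fold change of 2.42 for rod-1, 2.22 for kbp-3, 1.96 for kbp-5, -2.14 for cpar-1 and -2.17 for klp-7.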

How the data were processed

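The authors deposited raw counts of reads per gene for 7 libraries, made with featureCounts 1.6.4 on a WBcel235 annotation, per the file headers. Its command line carries no setting for strand, read pairs or reads with several matches. Without strand, reads of overlapping genes cannot be told apart: 68 exon bases of knl-2 overlap acdh-3 and 68 of ndc-80 overlap ttr-39. BWA and DESeq2 are named in the submitters' processing notes. BWA does not split reads over introns. The authors also deposited a table of log2 fold changes and their errors, p-values and mean signal as size-factor-scaled counts. Its DESeq2 version was not given in the sources used here. The header lists a further wildtype 29 alignment with no column, not analysed here.

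Symbols came from the Ensembl release 115 annotation and a table of gene names, for 43693 of 46748 identifiers, and dsn-1 and the marker vet-4 had no match. Counts were tested with edgeR 4.0.16 (quasi-likelihood, robust, TMM, filterByExpr, genotype as the only term) in R 4.3.3, adjusted by Benjamini-Hochberg over all tested genes at a threshold of 0.05. The code was tested on simulated data. Ratios of counts had a pseudocount of 0.5. Exon length is the length column of the count table. One count was worth 0.0186 to 0.0293 CPM. Alternatives covered scaling, filter, DESeq2 1.42.0, the label number as a block, and libraries left out.

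The members, lists, tests and alternatives were chosen with earlier results of these data known. Genes named are the 10 members, of the wider list the 10 past the threshold with the smallest p and the 1 not past it with the largest absolute log2 fold change, the 5 nearest profiles, and flp-21. kbp-1, kbp-2, san-1 and zwl-1 were named after their values were seen.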

Additional observations from a re-analysis of the deposited data

Results flagged for a closer look

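For 3 of the 10 genes, mutant library 30 lay far from the other mutant libraries: the gap to its nearest neighbour, as a share of the group's range, exceeded Dixon's critical value for 4 samples. hcp-3 had 225 CPM there (gap share 0.855), him-10 69.0 CPM (0.872) and mdf-2 403 CPM (0.869). Chance flags about 1 in 20 groups, and 10 mutant groups were examined. These 10 groups are the same 4 libraries, so that rate gives no expected count of flags for them. The groups of 3 wildtype libraries cannot be examined this way. Wildtype library 30 was likewise the highest of its genotype for hcp-3 and mdf-2 and the lowest for him-10. The cause was not tested.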

How the results depend on the processing

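The count of higher genes among the 10, 1 with all libraries, was 0 with upper quartile scaling, 0 with the filter at a mean of 5 CPM, 4 with the label number as a replicate block, 0 without mutant libraries 22 and 29, 4 without wildtype libraries 11 and 22 (wildtype library 30 alone, assumed to vary like the others), 5 without both libraries numbered 30 and 0 to 2 with 1 library left out. At an unadjusted p under 0.05 the settings with 0 had 0 or 1. The count of lower genes was 0 in each of the 18 alternatives. Over all tested genes, 1175 were higher, against 748 with upper quartile scaling, 536 with the 5 CPM filter, 1809 with DESeq2, 339 without mutant libraries 22 and 29, 3015 without both libraries numbered 30 and 589 to 2505 with 1 library left out. The 3829 lower genes became 1679 with the 5 CPM filter and 1906 without wildtype libraries 11 and 22. Of the other pathway genes, the 10 higher became 6 with the 5 CPM filter, 4 without wildtype libraries 11 and 22, 24 without both libraries numbered 30 and 5 to 21 with 1 library left out. The share of lower among called genes was 76.5% with TMM, 84.5% with upper quartile scaling and 67.5% with library size alone; the median log2 fold change of all genes was -0.21, -0.42 and 0.01 in turn.

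Estimates near 0 changed sign. hcp-3, at -0.03, was 0.15 with DESeq2 size factors, 0.24 with library size alone, 0.21 without the ribosomal RNA, sperm, yolk, collagen and ribosomal protein genes, 0.10 without the filter, 0.19 with DESeq2, 0.085 with the replicate block, 0.18 without mutant libraries 22 and 29, 0.29 without both libraries numbered 30 and -0.27 to 0.52 with 1 library left out. hcp-4, at 0.02, was -0.15 with upper quartile scaling, -0.25 with the 5 CPM filter, -0.26 without mutant libraries 22 and 29, -0.046 without both libraries numbered 30 and -0.17 to 0.57 with 1 library left out. knl-2, at -0.15, was 0.12 with the replicate block, 2.46 without wildtype libraries 11 and 22 and -0.51 to 0.80 with 1 library left out. knl-3, at -0.29, was 0.019 with library size alone, 0.28 without both libraries numbered 30 and -0.56 to 0.53 with 1 library left out. None of the 6 ratios passed with a pseudocount of 5 either. The causes were not tested. Same-numbered libraries correlated in their deviations from the group means at -0.20 for 11, 0.07 for 22 and 0.46 for 30, so the numbers were not taken as pairs; with the replicate block 1363 genes were higher and 3008 lower, and knl-1, mdf-2, him-10 and ndc-80 passed while bub-1 did not (edgeR adjusted p = 0.0568). The lowest count of any of the 10 genes in a library was 423, for knl-2 in wildtype library 30.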
